A study of Xenopus laevis with 14 samples.

Results

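Genes of the transforming growth factor beta (TGF-beta) and bone morphogenetic protein (BMP) pathways were followed in whole brains of Xenopus laevis tadpoles carrying edits in ap3b2 or in eef1a2. The genes were taken by symbol, disregarding the homeolog suffix: TGF-beta ligands and receptors, activin and BMP receptors, numbered BMP genes, SMADs, smurf1 and smurf2, inhibin beta subunits, latent TGF-beta binding proteins, ski, skil, eng, nog, chrd and fst. This gave 106 of the 26807 genes in the count table, 55 of them L copies and 51 S copies. They were chosen knowing that tgfbr2, tgfbr3 and skil were lower in ap3b2 CRISPants than in controls, so values for ap3b2 CRISPants against controls are a description, without a p-value for any member.

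TGF-beta, activin and BMP ligands are secreted dimers that bring together type I and type II receptor kinases at the cell surface. The activated type I receptor phosphorylates receptor-regulated SMADs, which join the common SMAD and act on transcription in the nucleus, while inhibitory SMADs, SKI-family co-repressors, SMURF ubiquitin ligases and secreted antagonists hold the signal back. In the brain the pathway is known for its part in dorsal patterning, in the fate of neural progenitors and in the interplay of endothelial cells and pericytes during vessel maturation.

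Each library was made from the pooled whole brains of 6 tadpoles at stage 47, from embryos of 2 females. All embryos, controls included, had been injected with Cas9 protein and a guide RNA. Controls (5 libraries) received a scrambled guide without a target and are unedited, ap3b2 CRISPants (4 libraries) a guide against the gene of a beta subunit of the AP-3 vesicle adaptor, and eef1a2 CRISPants (5 libraries) a guide against the gene of a translation elongation factor; the authors model developmental and epileptic encephalopathies with both. CRISPants are mosaic F0 animals, so each pool mixes edited and unedited cells, and with whole brains a smaller number of cells of a type cannot be told apart from less RNA per cell.

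Libraries held 36563581 to 46745977 counted read pairs. The transcripts of the targeted genes did not separate the groups: ap3b2.S was at 72.2 ± 1.80 CPM (library-scaled counts, mean ± SD, n = 5) in controls and 68.3 ± 7.80 (n = 4) in ap3b2 CRISPants, and eef1a2.S was at 405.7 ± 27.1 in controls and 402.8 ± 29.9 (n = 5) in eef1a2 CRISPants. Neuronal marker genes summed to 7148 to 8243 CPM and radial glial marker genes to 2579 to 3161 CPM over the 14 libraries. Many Xenopus laevis genes are present as homeologs, an L and an S copy. Where their sequences are nearly the same, pairs may have been assigned to the wrong copy or lost, which makes values of one copy uncertain. CPM depends on transcript length, so levels are compared between groups and not between genes.

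The members called lower in eef1a2 CRISPants were 8 receptors and co-receptors, 3 SKI-family co-repressor genes and 1 ligand. None of 17 tested SMAD genes and none of 6 tested copies of the antagonist genes nog, chrd and fst passed the same thresholds. Over all genes 5.24% were called lower, a share that gives few calls or none in sets of this size. Nothing is read from their absence. The calls include tgfbr2.L and both copies of tgfbr3 and skil, known to be lower in ap3b2 CRISPants when the members were chosen. After removal of genes at 1 CPM or less in at least 4 libraries of a comparison, 86 members were tested in eef1a2 CRISPants against controls. Of these, 12 were lower at a false discovery rate (FDR) under 0.05 and a fold above 2 (edgeR's quasi-likelihood test, Benjamini-Hochberg adjustment over all genes), where 5.24% of the 20682 genes tested were called lower. None was called higher by edgeR or by DESeq2 (0.087% of all genes by edgeR). At an unadjusted p under 0.05, 38 members were lower and 12 higher, 50 in all, beside 50% of all genes. At FDR alone 31 members were lower (21.4% of all genes) and 9 were higher (18.8%). All eef1a2 libraries were below all controls for 16 members (10.8% of all genes) and above them for 5 (7.62%). In ap3b2 CRISPants, 13 of 88 tested members were called lower (5.11% of 20800 genes) and none higher, again by both tools (0.0769%). At FDR alone 30 were lower (22.8% of all genes) and 8 higher (20%), at an unadjusted p under 0.05 there were 36 lower and 11 higher (51.7% of all genes), and the groups did not overlap for 22 below (15.3%) and 6 above (10.2%). Nothing is read from these counts, since the choice of the genes rests on this contrast. Calls of single members in ap3b2 CRISPants, given below, likewise only state on which side of the thresholds a value fell. The controls are the same 5 libraries in both comparisons, so the eef1a2 p-values of members, those of tgfbr2, tgfbr3 and skil above all, reuse control values on which these genes were chosen and are not independent of the choice.

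The median log2 fold change over tested members was -0.10 in eef1a2 CRISPants and -0.16 in ap3b2 CRISPants, beside 0.03 over all genes tested in each. Receptors and co-receptors had a median of -0.74 over 23 tested genes in eef1a2 CRISPants, 8 of them called lower. Ligands had a median of -0.01 over 17 tested genes with 1 call, and SMADs a median of 0.07 over 17 with none. The 4 co-repressor genes had a median of -1.34 in eef1a2 CRISPants and -1.36 in ap3b2 CRISPants. They include both skil copies, and the receptors and co-receptors include tgfbr2 and tgfbr3. These genes were known to be lower in ap3b2 CRISPants when the members were chosen. The class medians carry that choice, and nothing is read from their order. In ap3b2 CRISPants the medians were -0.71 over 24 receptors and co-receptors with 9 calls, -0.05 over 18 ligands with 1 call and 0.12 over 17 SMADs with none. The filter removed 3 members (acvrl1.L, bmp3.S and tgfbr2.S) from the eef1a2 comparison that exceeded 1 CPM in every control library. From the ap3b2 comparison it removed 1 such member, acvr1c.L, with an unfiltered log2 fold change of -1.19 (SE 0.217). Without any filter, 17 of 104 members were lower in eef1a2 CRISPants (4.94% of all genes) and 15 of 105 in ap3b2 CRISPants (4.62%).

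**Figure D1:**
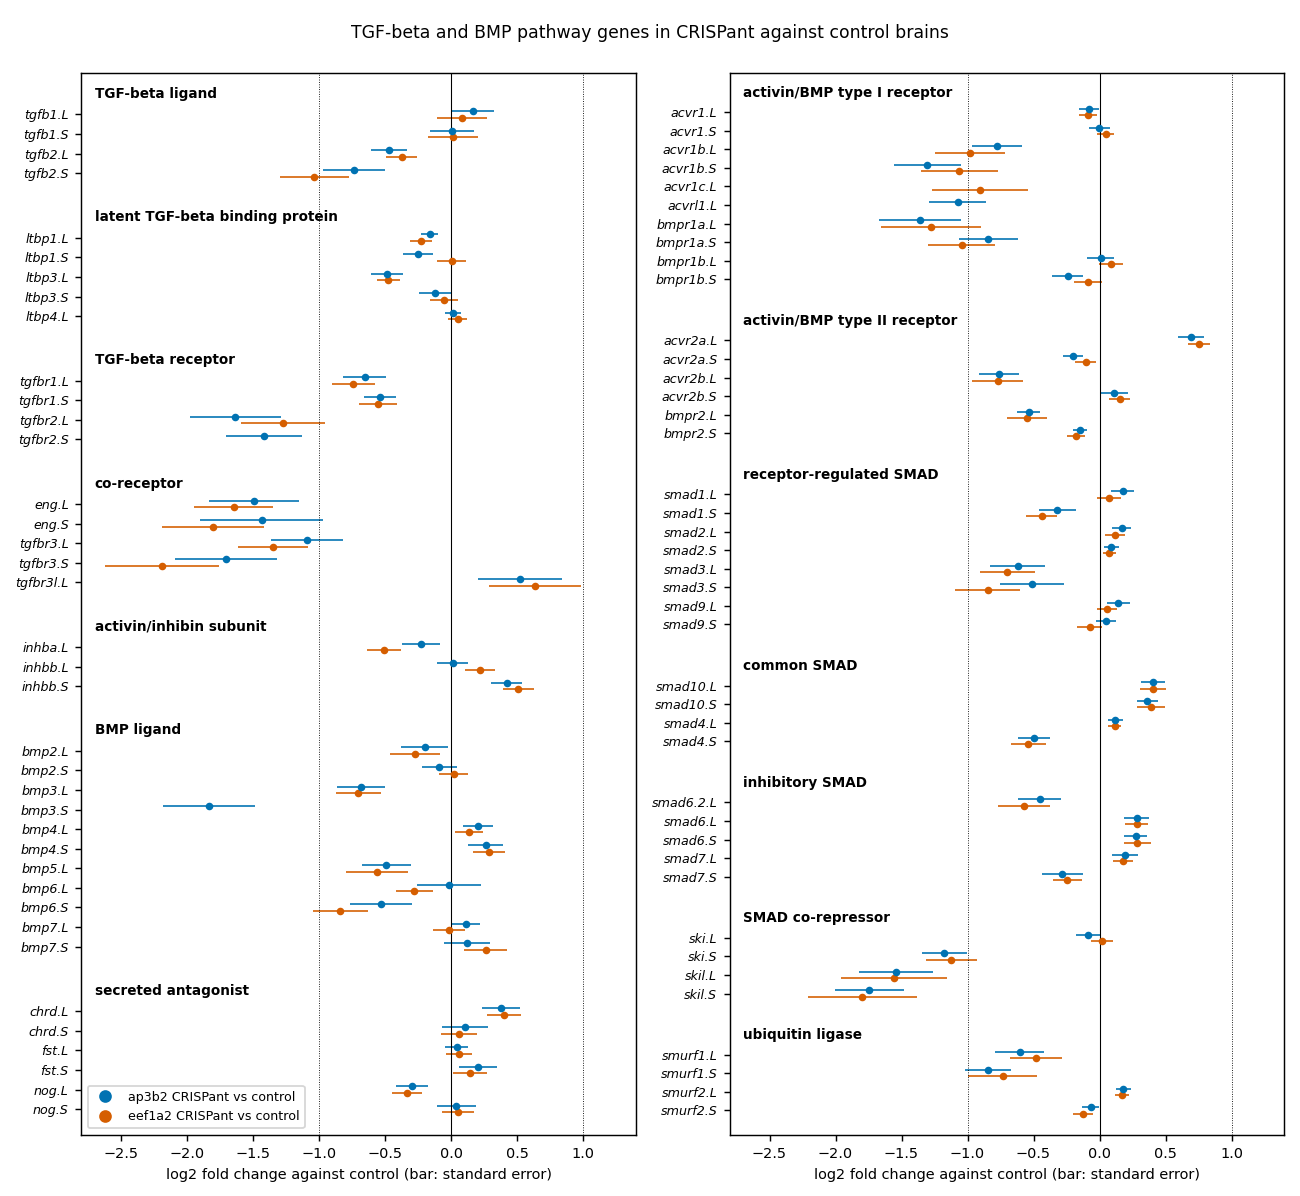
Log2 fold change against control (x axis, bars are standard errors) of tested genes, grouped by role, for ap3b2 CRISPants (blue) and eef1a2 CRISPants (orange), with dotted lines at a fold of 2. The lowest value in eef1a2 CRISPants is that of the co-receptor gene tgfbr3.S (-2.19) and the lowest in ap3b2 CRISPants that of the ligand gene bmp3.S (-1.83), acvr2a.L lies furthest right at 0.75 and 0.69, and most ligands, SMADs and antagonists lie between the dotted lines.

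The TGF-beta type II receptor tgfbr2 binds the ligand first and recruits the type I receptor tgfbr1. In control replicates 1 to 5, tgfbr2.L was at 3.09, 2.62, 2.76, 2.70 and 2.34 CPM. It was at 0.715, 1.39, 0.439, 2.08 and 0.952 CPM in eef1a2 CRISPant replicates 1 to 5 and at 0.587, 0.369, 0.723 and 1.75 CPM in ap3b2 CRISPant replicates 1 to 4. Every CRISPant library was thus under every control, and eef1a2 replicate 4 and ap3b2 replicate 4 came nearest to them. The log2 fold change was -1.27 (SE 0.319, edgeR adjusted p = 0.012) in eef1a2 CRISPants and -1.63 (SE 0.343) in ap3b2 CRISPants. The gene lies on chromosome 6L at positions 51053852 to 51114977 of the v10.1 assembly, and its homeolog tgfbr2.S on chromosome 6S at 41820930 to 41868131.

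For tgfbr2.S the controls held 2.40, 2.67, 2.89, 2.49 and 3.14 CPM. The eef1a2 CRISPants held 0.848, 1.01, 0.594, 0.861 and 0.547 CPM and the ap3b2 CRISPants 0.765, 0.501, 0.973 and 1.77 CPM. Again no CRISPant library reached the lowest control. The filter took tgfbr2.S out of the eef1a2 comparison, and without a filter its log2 fold change there was -1.80 (SE 0.191, edgeR adjusted p = 0.00647); in ap3b2 CRISPants it was -1.42 (SE 0.288). The type I receptor tgfbr1 moved less. It went from 20.6 ± 1.56 to 14.03 ± 3.08 CPM for the S copy (log2 fold change -0.55, SE 0.143, edgeR adjusted p = 0.0131) and from 5.26 ± 0.701 to 3.15 ± 0.689 CPM for the L copy (-0.74, SE 0.161, edgeR adjusted p = 0.0086) in eef1a2 CRISPants, passing the FDR but not the fold of 2. The ap3b2 means were 14.1 ± 2.77 and 3.32 ± 0.669 CPM. The related tgfbr2l.L and tgfbr2l.S stood at 0.508 ± 0.141 and 0.188 ± 0.122 CPM in controls and were removed by the filter. Unfiltered, the log2 fold change of tgfbr2l.L was 0.66 in eef1a2 CRISPants (SE 0.356, edgeR adjusted p = 0.178) and 1.07 in ap3b2 CRISPants (SE 0.324), where its mean was 1.06 ± 0.416 CPM.

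Betaglycan (tgfbr3) and endoglin (eng) are membrane co-receptors, the former presenting TGF-beta2 and inhibin to the signalling receptors, the latter best known from endothelial cells. All 4 of their copies were called lower in eef1a2 CRISPants. In controls, tgfbr3.S (chromosome 4S, 84220960 to 84329836) was at 4.73, 6.41, 3.97, 3.58 and 5.60 CPM. It was at 0.768, 1.27, 0.232, 2.36 and 0.666 CPM in eef1a2 CRISPants and at 0.892, 0.817, 0.946 and 3.21 CPM in ap3b2 CRISPants. The groups did not overlap, although ap3b2 replicate 4 was above the other ap3b2 libraries and close to the lowest control. The log2 fold change of -2.19 in eef1a2 CRISPants (SE 0.429, edgeR adjusted p = 0.0078) was the lowest of the members tested there; in ap3b2 CRISPants it was -1.71 (SE 0.386).

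The L copy of tgfbr3 (chromosome 4L, 100704732 to 100820602) was at 6.71, 7.04, 5.91, 5.61 and 7.62 CPM in controls, at 1.72, 2.59, 1.86, 4.81 and 1.90 CPM in eef1a2 CRISPants and at 2.40, 1.74, 2.61 and 5.48 CPM in ap3b2 CRISPants. Replicate 4 of each CRISPant group stood apart from its group towards the controls, without reaching them. The log2 fold change was -1.35 (SE 0.265, edgeR adjusted p = 0.0078) in eef1a2 CRISPants and -1.09 (SE 0.276) in ap3b2 CRISPants, where the fold of 2 was missed without replicate 1 (-0.99) or replicate 2 (-0.90).

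For eng.L the controls held 3.91, 4.53, 4.39, 3.77 and 4.39 CPM, the eef1a2 CRISPants 1.51, 1.74, 0.542, 2.13 and 0.762 CPM and the ap3b2 CRISPants 0.892, 1.08, 0.806 and 3.09 CPM. For eng.S the values were 2.82, 2.18, 2.30, 2.34 and 3.38 CPM, then 0.530, 1.32, 0.181, 1.22 and 0.452 CPM, then 0.383, 0.527, 0.445 and 2.42 CPM. All eef1a2 libraries were under all controls for both copies, while ap3b2 replicate 4 reached the control range for eng.S. Log2 fold changes in eef1a2 CRISPants were -1.65 for eng.L (SE 0.3, edgeR adjusted p = 0.0078) and -1.80 for eng.S (SE 0.389, edgeR adjusted p = 0.00857). In ap3b2 CRISPants they were -1.49 (SE 0.342) and -1.43 (SE 0.465). The eng.S value there no longer passed the thresholds without control replicate 1 (-1.397) or 5 (-1.32) and without ap3b2 replicate 1 (-1.17), 2 (-1.24) or 3 (-1.21). The third co-receptor gene, tgfbr3l.L, did not pass the test in eef1a2 CRISPants (log2 fold change 0.63, SE 0.349, edgeR adjusted p = 0.164).

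**Figure D2:**
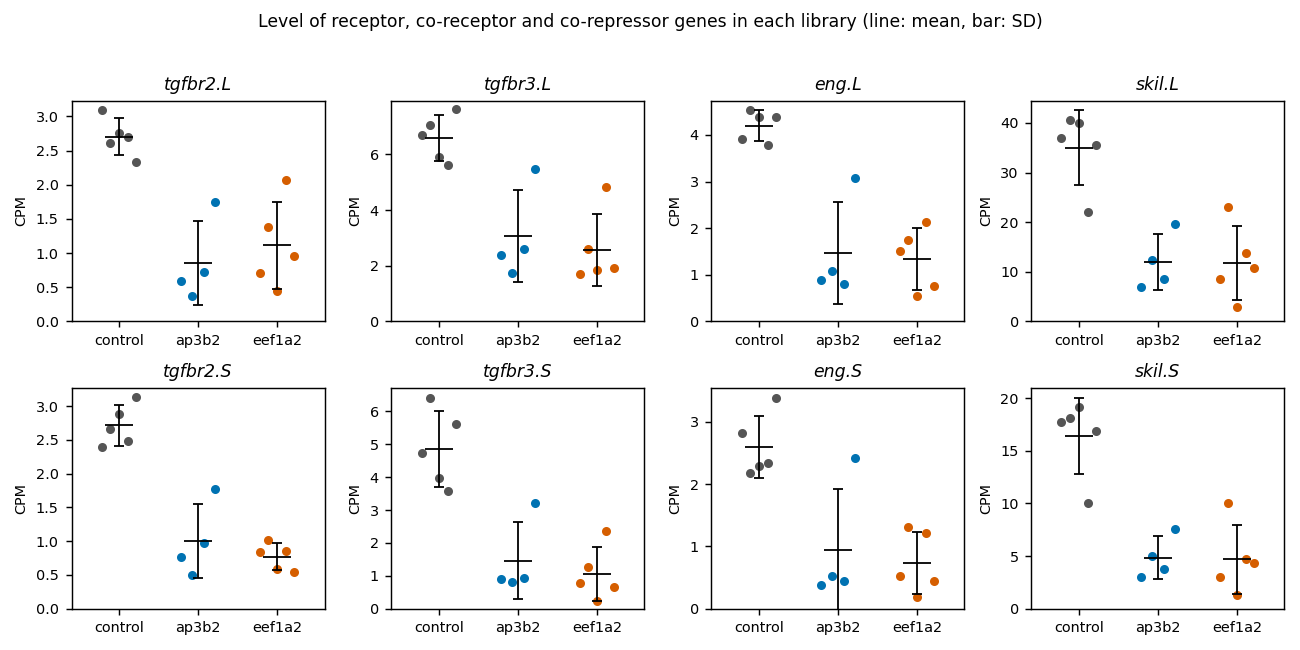
CPM (y axis, from 0) of tgfbr2, tgfbr3, eng and skil in each library, L copies above and S copies below, with the group mean (line) and SD (bar). Controls lie above the CRISPants except where ap3b2 replicate 4 reaches them for eng.S (2.42 CPM) and eef1a2 replicate 2 lies between control replicate 4 and the remaining controls for skil.L (23.0 CPM).

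Among type I receptors of the activin and BMP branches, acvr1b (ALK4, an activin receptor) and bmpr1a (ALK3, a BMP receptor) were called lower in eef1a2 CRISPants. There acvr1 and bmpr1b did not pass, nor did acvr1c.L (log2 fold change -0.91, SE 0.366, edgeR adjusted p = 0.067). The level of bmpr1a.S was 17.3, 16.8, 17.3, 10.7 and 14.6 CPM in controls, 6.01, 13.0, 4.65, 6.33 and 7.02 CPM in eef1a2 CRISPants and 5.20, 8.88, 7.37 and 12.51 CPM in ap3b2 CRISPants. Control replicate 4 was the lowest control, and eef1a2 replicate 2 and ap3b2 replicate 4 lay above it. In eef1a2 CRISPants the log2 fold change was -1.04 for bmpr1a.S (SE 0.252, edgeR adjusted p = 0.0108) and -1.28 for bmpr1a.L (SE 0.379, edgeR adjusted p = 0.0212). In ap3b2 CRISPants it was -0.84 (SE 0.226) and -1.36 (SE 0.310). These calls were close to the thresholds. In eef1a2 CRISPants bmpr1a.S missed the fold of 2 without control replicate 1 (-0.99) or 3 (-0.99) or eef1a2 replicate 1 (-0.97), 3 (-0.91) or 4 (-0.99). For bmpr1a.L the edgeR adjusted p was 0.0501 without control replicate 2 and 0.0513 without eef1a2 replicate 5. In ap3b2 CRISPants bmpr1a.S passed both thresholds only without replicate 4 among the single libraries left out (-1.09).

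For acvr1b.S the levels were 3.64, 3.18, 4.73, 2.00 and 3.46 CPM in controls, 1.38, 2.77, 0.878, 1.57 and 1.499 CPM in eef1a2 CRISPants and 1.17, 1.08, 1.31 and 1.89 CPM in ap3b2 CRISPants. All ap3b2 libraries were under the controls, whereas eef1a2 replicate 2 was above control replicate 4. The log2 fold change was -1.06 in eef1a2 CRISPants (SE 0.293, edgeR adjusted p = 0.0162), at -0.91 without control replicate 3 and -0.90 without eef1a2 replicate 3, and -1.31 (SE 0.254) in ap3b2 CRISPants. Its homeolog acvr1b.L passed the FDR but not the fold of 2 in eef1a2 CRISPants (log2 fold change -0.98, edgeR adjusted p = 0.0151). The receptor acvrl1 (ALK1), known from endothelial cells, was low in these brains: acvrl1.L was at 1.69 to 1.90 CPM in controls, 0.207 to 1.47 CPM in eef1a2 CRISPants and 0.584 to 1.20 CPM in ap3b2 CRISPants, with no overlap between either CRISPant group and the controls. It was called lower in ap3b2 CRISPants (log2 fold change -1.08, SE 0.216), though not without replicate 1 (-0.95) or replicate 3 (-0.94). In eef1a2 CRISPants it was tested only without the filter (-1.43, SE 0.377, edgeR adjusted p = 0.015). Its homeolog acvrl1.S was at 0.581 ± 0.153 CPM in controls and was removed by the filter from both comparisons. Unfiltered, its log2 fold change was -1.14 (SE 0.367, edgeR adjusted p = 0.0329) in eef1a2 CRISPants and -0.66 (SE 0.36) in ap3b2 CRISPants. By contrast bmpr1b.L was at 7.30 ± 0.463 CPM in controls and 7.77 ± 0.650 CPM in eef1a2 CRISPants (log2 fold change 0.09, SE 0.090), and the log2 fold changes of acvr1.L and acvr1.S were -0.09 and 0.05.

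The type II receptors went apart. The activin receptor gene acvr2a.L had the largest rise among tested members. It was at 54.4, 52.2, 53.8, 50.1 and 51.1 CPM in controls, at 95.8, 75.2, 107.7, 77.8 and 85.8 CPM in eef1a2 CRISPants and at 95.0, 88.4, 90.0 and 63.3 CPM in ap3b2 CRISPants. All 9 CRISPant libraries were above all controls. The log2 fold change was 0.75 (SE 0.085, edgeR adjusted p = 0.0078) and 0.69 (SE 0.100), under the fold of 2. Its homeolog acvr2a.S was at 55.5 ± 4.79 CPM in controls and 51.7 ± 4.97 CPM in eef1a2 CRISPants and did not pass (-0.10, edgeR adjusted p = 0.311). The related acvr2b.L fell from 11.1 ± 1.64 to 6.50 ± 1.90 CPM (log2 fold change -0.77, SE 0.190, edgeR adjusted p = 0.0113). Its homeolog acvr2b.S did not fall, at 40.2 ± 5.00 CPM in controls and 44.8 ± 2.55 CPM in eef1a2 CRISPants (0.15, SE 0.080, edgeR adjusted p = 0.143). Like acvr2b.L, the BMP type II receptor bmpr2 passed at the FDR alone, with -0.55 for bmpr2.L (edgeR adjusted p = 0.0159) and -0.18 for bmpr2.S (edgeR adjusted p = 0.0472).

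Ligand genes were mostly near the control level. For TGF-beta1, tgfb1.L was at 1.91 ± 0.158 CPM in controls, 2.02 ± 0.567 in eef1a2 CRISPants and 2.14 ± 0.384 in ap3b2 CRISPants, and tgfb1.S was at 1.62 ± 0.258, 1.64 ± 0.389 and 1.62 ± 0.185 CPM. TGF-beta2, which depends on betaglycan for high-affinity binding, was lower. Levels of tgfb2.S were 3.39, 2.72, 3.61, 2.95 and 3.01 CPM in controls, 1.404, 1.90, 0.620, 2.23 and 1.45 CPM in eef1a2 CRISPants and 0.969, 1.79, 2.20 and 2.51 CPM in ap3b2 CRISPants, with no overlap between controls and CRISPants. The log2 fold change was -1.04 in eef1a2 CRISPants (SE 0.262, edgeR adjusted p = 0.0122) and -0.74 in ap3b2 CRISPants (SE 0.235). The eef1a2 call missed the fold of 2 without control replicate 1 (-0.998) or 3 (-0.979) or eef1a2 replicate 3 (-0.83). Its homeolog tgfb2.L fell by less than a fold of 2 (-0.38, SE 0.120, edgeR adjusted p = 0.0289).

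Of the BMP ligands, bmp3.S had the lowest log2 fold change in ap3b2 CRISPants (-1.83, SE 0.347). BMP3 is known as an antagonist-like member of the family. Its S copy was at 2.48, 1.74, 1.96, 2.34 and 2.51 CPM in controls, at 0.503, 0.729, 0.620, 1.67 and 0.690 CPM in eef1a2 CRISPants and at 0.459, 0.185, 0.723 and 1.08 CPM in ap3b2 CRISPants. Every CRISPant library was under every control. Unfiltered, the eef1a2 log2 fold change was -1.38 (SE 0.289, edgeR adjusted p = 0.00806). The homeolog bmp3.L and bmp6.S passed the FDR alone in eef1a2 CRISPants (-0.70 and -0.84, edgeR adjusted p = 0.0108 and 0.0121). The dorsal patterning ligand bmp4 did not pass, at 7.37 ± 0.760 against 8.13 ± 0.854 CPM for bmp4.L and 5.12 ± 0.497 against 6.28 ± 0.846 CPM for bmp4.S.

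The activin subunit genes moved in both directions. In eef1a2 CRISPants inhba.L fell from 2.73 ± 0.189 to 1.93 ± 0.258 CPM (log2 fold change -0.51, SE 0.128, edgeR adjusted p = 0.0121) and inhbb.S rose from 4.09 ± 0.218 to 5.83 ± 0.825 CPM (0.51, SE 0.117, edgeR adjusted p = 0.00974), each with no overlap with controls. The homeolog inhbb.L did not pass there (0.22, SE 0.115, edgeR adjusted p = 0.144). In ap3b2 CRISPants the log2 fold changes were -0.23 for inhba.L (SE 0.143), 0.42 for inhbb.S (SE 0.115) and 0.01 for inhbb.L (SE 0.117). Among latent TGF-beta binding proteins, which hold the ligand in the matrix, ltbp3.L fell (log2 fold change -0.48, SE 0.088, edgeR adjusted p = 0.0078), with 11.8 to 14.6 CPM in controls and 8.90 to 10.5 CPM in eef1a2 CRISPants. The remaining tested genes of that family did not pass, among them ltbp1.L (-0.23, edgeR adjusted p = 0.0528), ltbp1.S (0.01) and ltbp4.L (0.05).

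None of the 17 SMAD genes was called in either comparison, where 5.24% (eef1a2) and 5.11% (ap3b2) of all genes were called lower. Of the 17, 11 had an unadjusted p under 0.05 in eef1a2 CRISPants, beside 50% of all genes. At the FDR alone 5 were lower (21.4% of all genes) and 4 were higher (18.8%) there. The lower ones included both copies of smad3, which carries TGF-beta and activin signals: smad3.L was at 3.57 ± 0.395 CPM in controls and 2.19 ± 0.71 in eef1a2 CRISPants (log2 fold change -0.70, SE 0.208, edgeR adjusted p = 0.0218), and smad3.S at 1.63 ± 0.114 and 0.901 ± 0.375 CPM (-0.85, SE 0.247, edgeR adjusted p = 0.0201). The other carrier of these signals, smad2, did not pass, at 36.0 ± 2.89 against 39.2 ± 3.50 CPM for the L copy and 67.0 ± 2.66 against 70.7 ± 3.41 CPM for the S copy.

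The common SMAD gene smad4.L was at 83.5 ± 3.32 CPM in controls, 90.5 ± 5.52 in eef1a2 CRISPants and 90.2 ± 5.36 in ap3b2 CRISPants. Its homeolog smad4.S was at 25.3, 24.6, 24.2, 27.9 and 25.9 CPM in controls, 15.9, 22.6, 12.9, 19.6 and 16.9 CPM in eef1a2 CRISPants and 15.5, 15.7, 17.4 and 23.6 CPM in ap3b2 CRISPants. Only the S copy was lower, without overlap (log2 fold change -0.54, SE 0.134, edgeR adjusted p = 0.0116, against 0.11 and an edgeR adjusted p of 0.103 for smad4.L). The Xenopus common SMAD smad10 rose, from 34.7 ± 1.96 to 46.1 ± 7.51 CPM for smad10.L (0.41, SE 0.095, edgeR adjusted p = 0.0102) and by 0.39 for smad10.S (SE 0.106, edgeR adjusted p = 0.0153).

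Inhibitory SMADs block the receptor and are themselves induced by the pathway. In eef1a2 CRISPants smad6.L and smad6.S rose by 0.28 and 0.29 on the log2 scale (edgeR adjusted p = 0.0225 and 0.0423), whereas smad6.2.L fell by 0.57 (edgeR adjusted p = 0.0398). The values for smad7 were 0.18 for the L copy (edgeR adjusted p = 0.0883) and -0.25 for the S copy (edgeR adjusted p = 0.0946), neither past the FDR.

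The co-repressors ski and skil bind SMADs and silence their targets, and skil is itself a well-known TGF-beta target. Levels of skil.L (chromosome 5L, 119086937 to 119108115) were 36.9, 40.6, 39.9, 22.0 and 35.5 CPM in controls, 8.64, 23.0, 2.87, 13.8 and 10.7 CPM in eef1a2 CRISPants and 6.94, 12.47, 8.62 and 19.7 CPM in ap3b2 CRISPants. Levels of skil.S (chromosome 5S, 98777991 to 98803607) were 17.8, 18.2, 19.2, 10.08 and 16.9 CPM, then 2.99, 10.04, 1.27, 4.76 and 4.38 CPM, then 3.01, 5.04, 3.78 and 7.61 CPM. For both copies control replicate 4 was the lowest control, eef1a2 replicate 2 the highest CRISPant library and eef1a2 replicate 3 the lowest. The groups overlapped at a single point, with eef1a2 replicate 2 above control replicate 4 for skil.L. The log2 fold change in eef1a2 CRISPants was -1.56 for skil.L (SE 0.403, edgeR adjusted p = 0.0131) and -1.80 for skil.S (SE 0.411, edgeR adjusted p = 0.00969), and in ap3b2 CRISPants -1.54 (SE 0.279) and -1.74 (SE 0.263).

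For ski the copies differed. Levels of ski.S were 17.0, 17.3, 17.0, 12.1 and 15.7 CPM in controls, 6.01, 9.59, 4.47, 8.71 and 7.36 CPM in eef1a2 CRISPants and 5.81, 6.67, 5.62 and 9.69 CPM in ap3b2 CRISPants, all 9 CRISPant libraries under all controls. Log2 fold changes of ski.S were -1.13 (SE 0.193, edgeR adjusted p = 0.0078; -0.99 without eef1a2 replicate 3) and -1.18 (SE 0.171). The L copy was at 60.8 ± 7.30 CPM in controls, 61.7 ± 3.33 in eef1a2 CRISPants and 56.8 ± 3.46 in ap3b2 CRISPants (0.02, SE 0.084, edgeR adjusted p = 0.863 in the eef1a2 comparison). Of the ubiquitin ligases that target receptors and SMADs, smurf1.S fell by 0.73 (SE 0.263, edgeR adjusted p = 0.0437) and smurf2.L rose by 0.17 (SE 0.053, edgeR adjusted p = 0.0249) in eef1a2 CRISPants.

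The secreted antagonist genes among the members, nog, chrd and fst, stayed under the fold of 2 in both CRISPant groups. Follistatin (fst.L) was at 15.52 ± 1.5 CPM in controls, 16.2 ± 1.88 in eef1a2 CRISPants and 15.9 ± 0.372 in ap3b2 CRISPants. At the FDR alone, noggin nog.L fell by 0.34 (SE 0.113, edgeR adjusted p = 0.0352) and chordin chrd.L rose by 0.40 (SE 0.128, edgeR adjusted p = 0.0278) in eef1a2 CRISPants, while nog.S, chrd.S, fst.L and fst.S did not pass. Of the remaining members, bmp1.L, a protease that cleaves chordin and procollagen, rose by 0.25 (edgeR adjusted p = 0.037), tgfbrap1.L, a receptor-associated adaptor, fell by 0.53 (edgeR adjusted p = 0.0182), and tgfbi, tgfb1i1 and bmp2k did not pass. The 17 members whose control mean was under 1 CPM included both bmp10 copies. No read pair of bmp10.S was counted in any library, which allows up to 0.082 CPM in the shallowest library at 3 counts, a limit that covers counting error only.

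Several gene pairs changed in one copy more than in the other, which was examined after their values had been seen. The log2 ratio of L to S read pairs within each library (0.5 added to each count) does not depend on library scaling. Of 39 member pairs tested in both comparisons, the ratio of 12 did not overlap between eef1a2 CRISPants and controls, beside 16.8% of 7598 pairs of all genes, and that of 9 did not overlap between ap3b2 CRISPants and controls, beside 18.4%. In eef1a2 CRISPants the ratio was higher than in all controls for 9 of the 12 and lower for 3, beside 662 and 618 of all pairs. In ap3b2 CRISPants it was higher for 5 of the 9 and lower for 4, beside 771 and 629 of all pairs. These counts are a description, with no test.

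The largest shift was that of ski, at 2.04, 1.88, 1.88, 2.05 and 1.88 in controls, 3.38, 2.75, 3.70, 2.90 and 2.99 in eef1a2 CRISPants and 3.22, 3.14, 3.43 and 2.47 in ap3b2 CRISPants. The ratio of tgfbr3 went from 0.46 ± 0.196 to 1.53 ± 0.810 in eef1a2 CRISPants and 1.18 ± 0.320 in ap3b2 CRISPants, the S copy being the more reduced. That of acvr2a went from -0.08 ± 0.105 to 0.77 ± 0.177 and 0.80 ± 0.321, and that of acvr2b from -1.86 ± 0.089 to -2.83 ± 0.493 and -2.74 ± 0.396. The pair of skil moved much less, from 1.09 ± 0.048 to 1.34 ± 0.176 and 1.27 ± 0.087, both copies being lower. The ratios of smad2 and smad6 shifted by 0.04 and 0.01 in eef1a2 CRISPants and overlapped with controls. How far reads were shared between the copies was not tested.

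**Figure D3:**
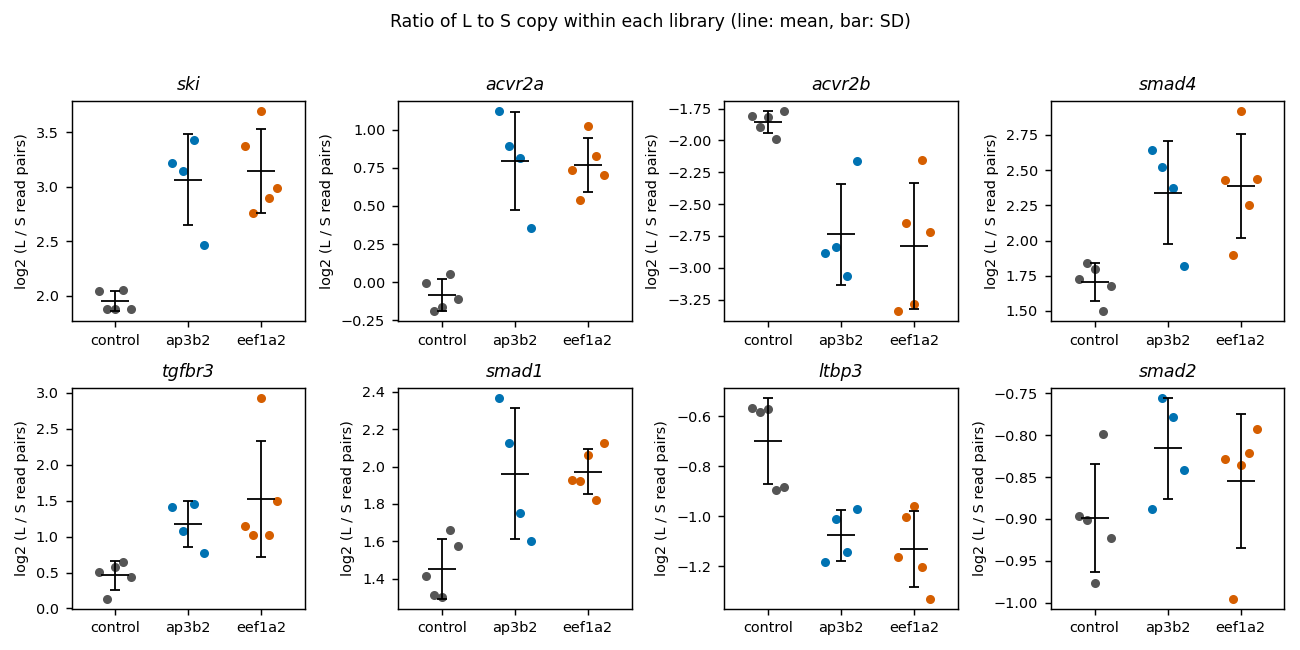
Log2 ratio of L to S read pairs within each library (y axis) for 8 gene pairs, with the group mean (line) and SD (bar). The ratio of ski, acvr2a, acvr2b and tgfbr3 in every CRISPant library lies outside the control range, with ski at 1.88 to 2.05 in controls and 2.47 to 3.70 in CRISPants, while smad2 overlaps.

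Libraries of a group were not alike. The median over 23 tested receptors and co-receptors of log2(CPM + 0.5), taken against the control mean, was -0.69, -0.13, -0.97, -0.33 and -0.77 in eef1a2 replicates 1 to 5 and -0.82, -0.73, -0.73 and -0.24 in ap3b2 replicates 1 to 4. Controls lay at 0.03, 0.04, 0.06, -0.14 and 0.00. Thus eef1a2 replicate 2 and ap3b2 replicate 4 stood nearest to the controls and control replicate 4 nearest to the CRISPants. Epidermal marker genes summed to 79.3 CPM in eef1a2 replicate 2 and 80.6 CPM in ap3b2 replicate 4, and to at most 56.9 CPM in any other library. The part of this difference in the receptor medians was not tested. Without eef1a2 replicate 2 the number of members called lower was 16, without ap3b2 replicate 4 it was 15, and without control replicate 4 it was 13 in both comparisons. The share of all genes called lower moved as well, to 8.27% without eef1a2 replicate 2, to 8.58% without ap3b2 replicate 4, and to 6.28% (eef1a2) and 6.13% (ap3b2) without control replicate 4.

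**Figure D4:**
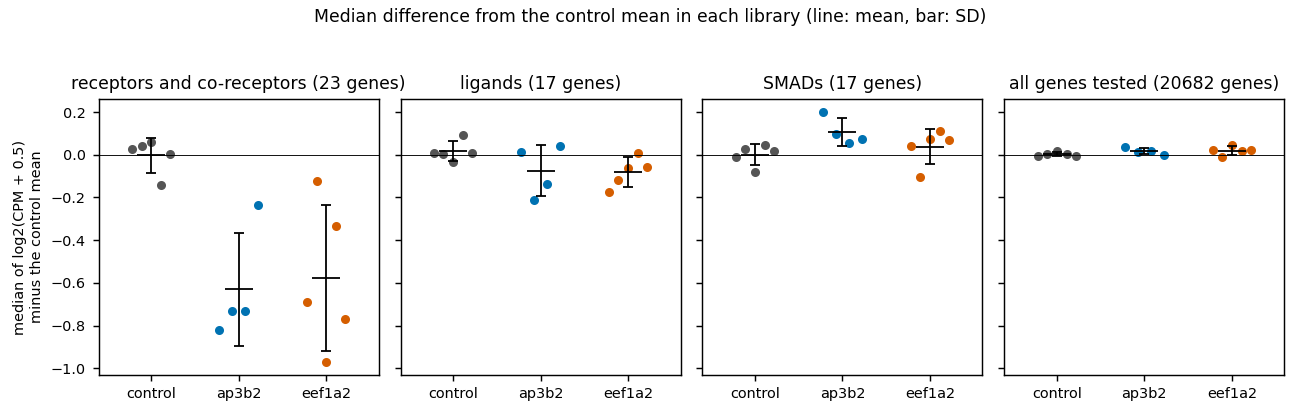
Median difference from the control mean on the scale of log2(CPM + 0.5) in each library (y axis) for receptors and co-receptors, ligands, SMADs and all genes tested, with the group mean (line) and SD (bar). Receptors and co-receptors reach -0.97 in eef1a2 replicate 3, whereas the medians of all genes lie between -0.01 and 0.05.

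Vessel marker sums ranged lower in CRISPants than in controls. Endothelial sums overlapped with controls in both CRISPant groups and mural sums did in ap3b2 CRISPants, while mural sums in eef1a2 CRISPants did not. The 34 endothelial marker genes, 4 of them under 1 CPM in controls, summed to 190.8 to 235.4 CPM in controls, 145.4 to 221.5 CPM in ap3b2 CRISPants and 151.3 to 219.9 CPM in eef1a2 CRISPants, with ap3b2 replicate 4 and eef1a2 replicate 4 highest in their groups. In eef1a2 CRISPants 5 of 24 tested endothelial genes were called lower, led by kdrl.L (log2 fold change -2.21, edgeR adjusted p = 0.0078) and cdh5.S (-1.61, edgeR adjusted p = 0.0078), and cldn5.S among them (-1.08, edgeR adjusted p = 0.0105). The endothelial genes tie1, tek, egfl7, sox18 and cldn5.L did not pass, for example egfl7.L at 10.7 ± 1.3 CPM in controls and 10.8 ± 1.10 in eef1a2 CRISPants. The 18 mural cell genes summed to 165.9 to 205.9 CPM in controls, 148.3 to 167.5 CPM in ap3b2 CRISPants and 143.3 to 164.9 CPM in eef1a2 CRISPants. No endothelial or mural gene was at 0 in all libraries. Sums of the other cell type lists overlapped between controls and each CRISPant group apart from cartilage in ap3b2 CRISPants (183.2 to 204.3 CPM in controls, 152.5 to 174.0 CPM). Erythroid sums were 627.1 to 814.2 CPM in controls. They were 1036, 560.3, 1072, 1252 and 1048 CPM in eef1a2 replicates 1 to 5 and 1034, 775.2, 952.3 and 1114 CPM in ap3b2 replicates 1 to 4. Only replicate 2 of each CRISPant group was thus not above all controls. Over the 14 libraries oligodendrocyte genes summed to between 373.5 and 752.4 CPM and fibroblast and meningeal genes to between 142.0 and 228.5 CPM. Microglia and leukocyte genes lay between 35.8 and 43.8 CPM, skeletal muscle genes between 26.7 and 60.1 CPM and epidermal genes between 42.5 and 80.6 CPM. Single genes of these lists were nevertheless called: 4 of 14 oligodendrocyte genes were lower in each CRISPant comparison (both copies of cnp and mag, with mag.S at -1.66 and an edgeR adjusted p of 0.0078 in eef1a2 CRISPants), and 2 of 4 tested epidermal genes, both copies of krt12.5, were higher. In eef1a2 CRISPants 1 of 12 mural and 2 of 17 fibroblast and meningeal genes were lower, and no gene of the remaining lists was called. In ap3b2 CRISPants 7 of 28 endothelial, 0 of 12 mural and 1 of 17 fibroblast and meningeal genes were lower. At the FDR alone 11 of 24 endothelial and 6 of 12 mural genes were lower in eef1a2 CRISPants, beside 21.4% of all genes. In ap3b2 CRISPants 13 of 28 endothelial and 5 of 12 mural genes were lower at the FDR alone, beside 22.8% of all genes. None of either list was higher at the FDR alone (18.8% and 20% of all genes). Over all genes tested 5.24% were called lower and 0.087% higher in eef1a2 CRISPants, and 5.11% and 0.0769% in ap3b2 CRISPants. The part of the endothelial and mural sums in the levels of tgfbr2, tgfbr3, eng and acvrl1 was not tested.

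The median annotated span was 60896 bases for 10 of the 12 members lower in eef1a2 CRISPants and 37623 bases for 62 of the remaining 74 tested. In ap3b2 CRISPants the medians lay closer, at 47202 bases for 11 of the 13 lower members and 37705 bases for 63 of the remaining 75. Over all genes such a check is void, since 77% of the genes lower in eef1a2 CRISPants and 78.5% in ap3b2 CRISPants had an annotated span. A longer span is therefore not shown to be particular to the lower members. With the trend of each library over gene span removed, 9 members were lower in eef1a2 CRISPants and 10 in ap3b2 CRISPants. The share of all genes called lower was then 4.69% and 4.18%, against 5.24% and 5.11% without the correction. By that setting tgfb2.S (-0.89), ski.S (-0.99) and bmpr1a.S (-0.93) missed the fold of 2 in eef1a2 CRISPants, and ski.S (-0.99), tgfbr3.L (-0.86) and acvrl1.L (-0.97) in ap3b2 CRISPants. The part of gene span in the result was not tested further.

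The CRISPant groups were then compared directly. Of 79 tested members none differed between ap3b2 and eef1a2 CRISPants by edgeR or by DESeq2, and none had an unadjusted p under 0.05. No gene of the 20584 tested was called (0%), and 0.87% had an unadjusted p under 0.05. The groups did not overlap for 0 members below (0.306% of all genes) and 0 above (0.228%). Log2 differences of members (ap3b2 minus eef1a2) ranged from -0.26 to 0.29, with 0.01 for skil.L (SE 0.488), 0.05 for skil.S (SE 0.487), 0.25 for tgfbr3.L (SE 0.392) and -0.07 for acvr2a.L (SE 0.134). Differences of the size of these SEs were not detectable here. The filter removed tgfbr2, eng and tgfbr3.S from this comparison.

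Other genes of the pathway were taken from lists of extracellular regulators, SMAD cofactors and further ligands. Among extracellular regulators, 6 of 32 tested genes were called lower and none higher in eef1a2 CRISPants, with 14 lower and 1 higher at the FDR alone, beside 5.24% of all genes called lower and 21.4% lower and 18.8% higher at the FDR alone. They were the BMP antagonists nbl1.S (from 4.34 ± 0.407 to 1.19 ± 0.428 CPM, log2 fold change -1.87, SE 0.228) and crim1.L (from 11.8 ± 1.97 to 4.37 ± 1.56 CPM, -1.42, SE 0.232) with crim1.S (-1.32, SE 0.248), and genes whose products release TGF-beta from its latent form: itgb8.L (-1.42, SE 0.350), thbs1.L (-1.23, SE 0.254) and itgav.L (-1.08, SE 0.178). The BMP co-receptor rgmb fell under the fold of 2 in both copies (-0.76 and -0.78). Of 4 tested further ligands gdf10.L was called lower (-1.13, edgeR adjusted p = 0.0475). Of 38 tested SMAD cofactors 4 were called lower and none higher: the receptor anchors zfyve9.L (-1.21, SE 0.314), zfyve9.S (-1.41, SE 0.355) and zfyve16.L (-1.15, SE 0.273), and the coactivator ncoa3.S (-1.26, SE 0.331). In ap3b2 CRISPants 7 of 33 extracellular regulators and 5 of 38 SMAD cofactors were called lower, beside 5.11% of all genes.

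Target genes of the pathway did not move one way. Of 36 tested targets, skil.L and skil.S were the ones called lower in eef1a2 CRISPants (5.56%, beside 5.24% of all genes). Both were known to be lower in ap3b2 CRISPants when the members were chosen. At the FDR alone 9 targets were lower and 4 higher in eef1a2 CRISPants (21.4% and 18.8% of all genes). The median log2 fold change over the targets was 0.09. The BMP target id2 rose, from 121.4 ± 8.26 to 155.5 ± 18.8 CPM for id2.L (0.35, SE 0.080, edgeR adjusted p = 0.00937) and from 48.2 ± 3.57 to 64.3 ± 8.06 CPM for id2.S (0.41, SE 0.083, edgeR adjusted p = 0.00793). The targets id3 and id4 did not pass (id3.L 0.12, id4.L 0.03). The TGF-beta targets junb.S (-0.58, edgeR adjusted p = 0.0325), cdkn1a.S (-0.65, edgeR adjusted p = 0.0295) and fn1.S (-0.46, edgeR adjusted p = 0.0102) fell at the FDR alone.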

How the data were processed

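Total RNA of 14 brain pools was made into stranded mRNA libraries and sequenced as read pairs. The authors aligned reads with STAR to the X. laevis v10.1 assembly and counted pairs per gene with featureCounts (reverse strand); the deposited counts, whole numbers and not normalized, were the basis of every test. The authors also deposited log2 CPM values after edgeR scaling and a filter on low genes, which matched values recomputed from the counts for 21328 genes to within 4.99e-09 and were used only for that check. The series text gives 5 replicates per condition, and 4 ap3b2 libraries were analysed here.

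Each comparison was fitted on its own libraries with edgeR 4.0.16 (R 4.3.3). The tool, the filter and the thresholds follow the study's methods, while TMM scaling and the quasi-likelihood F test were chosen here. Genes whose CPM did not exceed 1 in at least 4 of the compared libraries were removed first. Genes were called at an FDR under 0.05 and a fold above 2. Levels are CPM after TMM scaling over all 14 libraries, given as mean ± SD. The scripts were tested on simulated data. No label says whether pools of one group came from separate injections, so p-values measure the spread between these pools, which share their 2 mothers. No pair of libraries had identical values.

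The members and the 15 lists of other genes were chosen with earlier results of these data known. Genes named by rule were all called members, both copies of tgfb1, tgfb2, tgfbr1, tgfbr2, tgfbr3, acvrl1, eng, bmpr1a, bmpr2, smad2, smad3, smad4, smad7, ski, skil, bmp4, nog, chrd, fst and ltbp1, and the tested member of each role with the highest and the lowest log2 fold change in eef1a2 CRISPants; tgfb3 was not analysed here. Any other gene is named with its values already known. Gene positions came from a RefSeq table of the v10.1 assembly, which held 88 of the 106 members. Alternatives were DESeq2 1.42.0, other scaling, filters and thresholds, a replicate block, a term for replicates 4 and 5, replicates 1 to 3 alone, a correction for gene span and leaving out each library. Promoter and protein sequences were not analysed here.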

Additional observations from a re-analysis of the deposited data

Results flagged for a closer look

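In 20 members and 60 groups of 4 or 5 libraries, 9 values stood apart from the rest of their group by Dixon's criterion, which flags about 1 in 20 groups by chance. In ap3b2 replicate 4, eng.L (3.085 CPM, next highest 1.081), eng.S (2.416, next 0.5272) and tgfbr3.S (3.205, next 0.9455) were above the other ap3b2 libraries, on the side of the controls. In eef1a2 replicate 4, bmp3.S (1.672 CPM, next 0.7289) and tgfbr3.L (4.812, next 2.586) were above the other eef1a2 libraries, and in eef1a2 replicate 2, bmpr1a.S (13.03, next 7.021) and tgfbr1.L (4.326, next 3.047) were. In control replicate 4, skil.L (22.03 CPM, next 35.46) and skil.S (10.08, next 16.92) were under the other controls, on the side of the CRISPants.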

How the results depend on the processing

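The number of members called lower stayed within 1.5 times its value under DESeq2, other scalings, other low-count filters, a fit of all 14 libraries, a term for replicates 4 and 5, replicates 1 to 3 alone and removal of the gene span trend, though the share of all genes called lower did not: with replicates 1 to 3 alone it was 1.92% (eef1a2, 10 members) and 10.4% (ap3b2, 18 members), against 5.24% and 5.11%. Leaving out 1 library gave 9 lower members (without control replicate 3) to 16 (without eef1a2 replicate 2) in eef1a2 CRISPants. The share of all genes called lower was 4.6% and 8.27% at these settings. In ap3b2 CRISPants the range was 11 (without ap3b2 replicate 1) to 15 (without ap3b2 replicate 4), beside 3.46% and 8.58% of all genes. Without the fold threshold, 31 members were lower (21.4% of all genes) and 9 higher (18.8%) in eef1a2 CRISPants. In ap3b2 CRISPants 30 were lower (22.8%) and 8 higher (20%). A test against a fold of 2 (edgeR's glmTreat) called 0 members lower in either comparison, nor any gene at all. At an unadjusted p under 0.05 by that test there were 6 and 9 members, beside 375 of 20682 and 463 of 20800 genes. Members higher in ap3b2 CRISPants numbered 1 without a filter (tgfbr2l.L), 1 with filterByExpr and 2 with replicates 1 to 3 alone (tgfbr2l.L and tgfbr3l.L). The share of all genes called higher was 0.442%, 0.298% and 0.342% at these settings, against 0.0769% in the main fit. The cause was not tested. Of the log2 fold changes of called members and both copies of tgfbr1, tgfbr2, tgfbr3, acvr2a, ski and skil under the alternatives, 682 kept their side of the thresholds, 36 lost a call, 2 gained one and 0 reversed a called change. The uncalled ski.L changed sign with the setting, between -0.08 and 0.17 in eef1a2 CRISPants and between -0.18 and 0.10 in ap3b2 CRISPants. With replicates 1 to 3 alone the eef1a2 values of skil.L (-1.75), skil.S (-1.93), eng.S (-1.82), tgfb2.S (-1.296), acvr1b.S (-1.19), bmpr1a.L (-1.20) and bmpr1a.S (-1.11) lost their calls. Each missed the FDR, and the cause was not tested.

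Pairs with L to S ratios apart from controls numbered 12 to 15 in eef1a2 CRISPants and 9 to 16 in ap3b2 CRISPants when 1 library was left out, with 16 (beside 39.1% of all pairs) without ap3b2 replicate 4. A pseudocount of 1, chosen like the leave-one-out of this ratio after seeing the data, left 12 and 9.

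Same-numbered libraries of eef1a2 CRISPants and controls correlated in their deviations from group means at 0.23 to 0.36 for 4 pairs and -0.22 for replicate 3, those of ap3b2 CRISPants and controls at 0.10 to 0.31 for 3 pairs and -0.06 for replicate 4, and those of the CRISPant groups at -0.06 to 0.63. Since not every pair correlated, the numbers were not taken to pair the libraries. With the replicate number as a block, 14 members were lower in eef1a2 CRISPants (6.08% of all genes). In ap3b2 CRISPants 12 were lower (5.23% of all genes), and eng.S missed the FDR there. Low-expressed members, such as tgfbr2.S at under 4 CPM in every library, carry the largest counting error. The planned look at promoter and protein sequences was not run.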
